A study of Rattus norvegicus with 19 samples.

Results

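Gene expression in rat somatosensory cortex 24 h after perfusion with albumin was set against that 24 h after a sham operation, in the second set of animals of a study on how blood-brain barrier opening makes the cortex epileptic. The comparison uses 5 of the study's 19 arrays, chosen by their titles: 3 albumin arrays and 2 sham arrays of set 2. All animals were adult male Wistar rats. The albumin animals had the cortex perfused with artificial cerebrospinal fluid holding 0.1 mM bovine serum albumin, a dose the labels place below the level in serum. The sham animals are described only as sham operated, so the labels do not say whether perfusion fluid without albumin was applied to them. A further 4 animals of set 2 received albumin with an antibody to the type 2 TGF-β receptor (50 µg/ml) and SB431542 (100 µM), which blocks the kinase of the type 1 receptor. Their arrays entered the model only to estimate the spread between animals. The design text describes the arrays of set 2 as separate animals, and their number limits the precision of every value below.

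Albumin is the most abundant protein of blood plasma and is normally kept out of brain tissue by the blood-brain barrier. Where the barrier opens, albumin reaches the extracellular space and is taken up by astrocytes, the glial cells that clear potassium, water and glutamate around neurons. Microglia, the resident immune cells of brain, and astrocytes both answer injury with chemokines and cytokines, which act through the transcription factors NF-κB and STAT3.

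Values are log2 signals of 1 probe set per gene. A gene was tested where its signal was above 4 on at least 2 arrays of set 2, which left 10333 of 14224 genes, and it was called where its adjusted p was under 0.05. Differences are albumin minus sham in log2 units with their standard errors (SE), so a difference of 1 is a 2-fold difference. The marker genes of neurons and of cortex were strongly detected on all 5 arrays, with Snap25 at 15.21 to 15.25 in albumin animals and 15.26 to 15.33 in sham animals. Of 9 markers of choroid plexus only 2 passed the filter, and of 9 markers of striatum 6 did. In bulk tissue, a lower signal can mean fewer cells of a type or less RNA in each cell, and these cannot be told apart.

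The arrays of both groups were not equally alike. Over the tested genes, albumin replicate 2 correlated with the rest of set 2 at a median r of 0.935, while the same median was 0.970 to 0.986 for the other 8 arrays. It lay at least 1 log2 unit above both other albumin arrays for 355 genes and below both for 491. The sham arrays were closer to each other, with 189 genes at least 1 apart, but these genes were not spread evenly over the arrays: sham replicate 2 was the higher for 151 of them and sham replicate 1 for 38. Sham replicate 2 was above sham replicate 1 for 17 of 20 genes of reactive astrocytes and 18 of 22 genes of phagocyte activation, against 53.3% of all genes tested. The mean signal of the reactive astrocyte genes was 9.38, 9.88 and 9.79 in the albumin animals, against 6.62 and 7.95 in the sham animals. For phagocyte activation the means were 9.84, 10.16 and 10.23 in the albumin animals, against 7.99 and 9.17 in the sham animals. Both sham arrays lay below all albumin arrays on these lists. The median difference of the reactive astrocyte list was 1.71 without sham replicate 1 and 2.24 without sham replicate 2. For phagocyte activation it was 0.74 and 1.67. Why the sham arrays differed was not tested.

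In all, 137 genes were called, which is 1.33% of the genes tested. Of these, 99 rose (0.958%) and 38 fell (0.368%), and 87 changed at least 2-fold. The 0.958% and 0.368% are the shares against which list counts of rises and falls are to be read. The albumin and sham arrays did not overlap for any of the 137. Calls and overlap rest on the same few arrays, so this separation is no separate evidence for a call. The same holds wherever groups are described as separate below. A wider view without a test counted genes at least 2-fold apart with no overlap between the groups: 378 were higher with albumin (3.66%) and 258 lower (2.5%), so 549 of these 636 genes (6.16%) were not called. At an unadjusted p under 0.05 there were 1342 higher and 866 lower genes, together 21.4% of the genes tested, and the smallest adjusted p was 0.0146. The calls rested heavily on the few arrays. Without sham replicate 1 only 2 genes were called, and without sham replicate 2 only 1. Without albumin replicates 1, 2 and 3 in turn the counts were 79, 112 and 56. Leaving out blocker replicates 1, 2, 3 and 4, which serve only the spread, gave 10, 14, 81 and 190 calls. With each array centred on its median, 52 genes rose and 37 fell, against 99 and 38 as deposited. The direction of all 137 genes, and their unadjusted p under 0.05, held in each of these settings. Since the groups do not overlap for these genes, leaving out an array could not have reversed a direction.

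**Figure D1:**
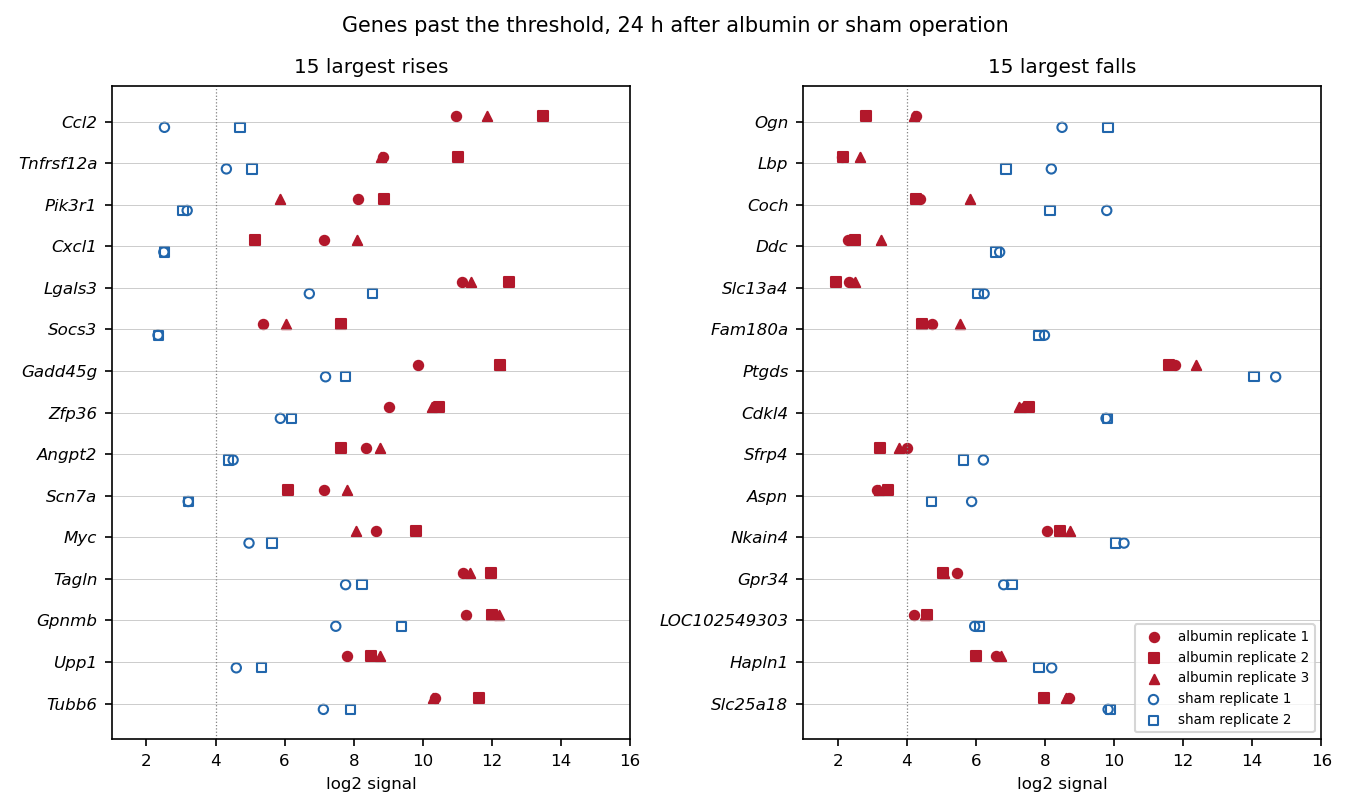
Log2 signal on each albumin array (filled red) and each sham array (open blue) for the 15 largest rises and 15 largest falls among the genes called; marker shapes give the replicate number and the dotted line marks the filter level of 4. No gene overlaps between the groups, and for Ccl2 the albumin arrays sit at 10.97 to 13.47, above sham arrays at 2.52 and 4.71.

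The largest rise of all genes tested was that of a chemokine. Ccl2, which draws monocytes into tissue, read 10.97, 13.47 and 11.85 in the albumin animals, against 2.52 and 4.71 in the sham animals. Every albumin array was more than 6 log2 units above the higher sham array, and the difference was 8.48 ± 1.04 (SE; adjusted p = 0.0266). With all signals under 4 set to 4, the difference was 7.74. Cxcl1, a neutrophil chemokine, read 7.15, 5.15 and 8.09 with albumin, against 2.50 and 2.52 in sham, and rose by 4.28 ± 0.68 (adjusted p = 0.044). Both sham signals were under 4, and with signals under 4 set to 4 the difference was 2.80. Its albumin arrays varied widely but none came near the sham level. Ccl19, a lymphocyte chemokine, was the single member that fell (−0.77 ± 0.11, adjusted p = 0.0366), with 4.76, 4.76 and 4.75 in albumin animals and 5.38 and 5.67 in sham animals. Of 14 chemokines tested, 2 rose, 1 fell and 11 did not pass, with a list median of 1.49 against 0.017 for all genes tested. The median was 0.77 without albumin replicate 3, 0.94 without sham replicate 1, and 0.03 over the 29 listed chemokines measured when no filter was applied. Ccl7, a relative of Ccl2, had 6.95, 10.60 and 9.38 with albumin and 2.63 and 3.55 in sham (5.89 ± 1.32, adjusted p = 0.0672). That gene was separated between the groups but missed the threshold.

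Genes of IL-1, TNF and NF-κB signalling were above sham for 24 of 26 members, against 52.3% of all genes tested. The 26 are those of 37 members with a probe set that passed the filter. Some, such as Il1b and Tnf, were under 4 on both sham arrays and did not pass through sham. The count above sham and the list median therefore lean upward. Of the 26, 5 rose and none fell, against 0.958% and 0.368% of all genes tested, with a median of 1.11. Among receptors, Tnfrsf12a, which binds the cytokine TWEAK, read 8.85, 11.02 and 8.78 with albumin and 4.31 and 5.06 in sham (4.86 ± 0.87, adjusted p = 0.047). Ltbr, the lymphotoxin β receptor, rose by 1.61 ± 0.25 (adjusted p = 0.044). In the pathway behind these receptors, the kinase Ripk1 rose by 1.0 ± 0.18 (adjusted p = 0.0487), the NF-κB subunit gene Nfkb1 by 0.60 ± 0.11 (adjusted p = 0.0487) and Nfkbia, the inhibitor that NF-κB itself induces, by 1.17 ± 0.21 (adjusted p = 0.047). Nfkbia read 9.47, 9.41 and 9.83 in the albumin animals, against 8.31 and 8.49 in the sham animals. The increases within the pathway were small beside that of its receptor Tnfrsf12a, and in each of these 5 genes the groups were separate. The cytokines themselves were uneven among the albumin animals. Il1b, which encodes interleukin-1β, read 3.53, 4.59 and 9.47 with albumin and 3.04 and 3.12 in sham (2.78 ± 1.43, adjusted p = 0.298). Tnf read 4.58, 2.39 and 6.32 with albumin and 2.37 on both sham arrays (2.06 ± 0.94, adjusted p = 0.254). Cd14, a co-receptor for bacterial lipopolysaccharide, read 8.28, 10.43 and 9.83 with albumin and 2.38 and 6.28 in sham (5.18 ± 1.43, adjusted p = 0.102). Il1b was high in albumin replicate 3 alone, and the Cd14 sham arrays were almost 4 log2 units apart.

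Promoter windows of RefSeq (assembly GRCr8, 250 bases before to 50 after the gene's start) were searched on both strands for letters bound by NF-κB (GGGNN followed by TTTCC), STAT factors (TTCNNNGAA) and AP-1 (TGANTCA). Windows were found for 84 of the 99 genes that rose, 29 of the 38 that fell and 8640 of all genes tested. The NF-κB letters were in 4 windows of genes that rose (4.8%), 1 of genes that fell (3.4%) and 136 of all (1.6%). The STAT letters were in 7 windows of genes that rose (8.3%), 2 of genes that fell (6.9%) and 544 of all (6.3%). For AP-1 the counts were 7 (8.3%), 3 (10.3%) and 387 (4.5%). These are descriptions of letters in a short window and do not show that a factor binds there. Ccl2 had no window, and the windows of Socs3 and Stat3 held none of the 3 motifs. The window of Nfkb1, named above, also held NF-κB letters and is not shown. The windows of 3 genes named above are shown 5′ to 3′ because they hold the searched letters, with the matches in capitals: NF-κB letters in Cxcl1 (chr14:17479272-17479571, minus strand) and Nfkbia (chr6:78597023-78597322, minus strand), and STAT letters in Tnfrsf12a (chr10:13213599-13213898, minus strand).
Cxcl1: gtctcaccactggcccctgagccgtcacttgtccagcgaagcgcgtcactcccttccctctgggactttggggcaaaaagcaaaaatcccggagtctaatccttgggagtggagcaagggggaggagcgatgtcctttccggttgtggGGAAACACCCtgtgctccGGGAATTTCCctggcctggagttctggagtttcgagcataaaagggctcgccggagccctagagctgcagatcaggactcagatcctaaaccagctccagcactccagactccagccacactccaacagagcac
Nfkbia: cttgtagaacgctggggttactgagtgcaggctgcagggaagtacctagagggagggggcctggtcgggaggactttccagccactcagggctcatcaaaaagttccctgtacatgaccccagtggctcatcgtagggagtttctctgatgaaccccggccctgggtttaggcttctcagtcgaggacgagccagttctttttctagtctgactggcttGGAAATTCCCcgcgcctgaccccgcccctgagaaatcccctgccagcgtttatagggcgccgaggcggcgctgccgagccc
Tnfrsf12a: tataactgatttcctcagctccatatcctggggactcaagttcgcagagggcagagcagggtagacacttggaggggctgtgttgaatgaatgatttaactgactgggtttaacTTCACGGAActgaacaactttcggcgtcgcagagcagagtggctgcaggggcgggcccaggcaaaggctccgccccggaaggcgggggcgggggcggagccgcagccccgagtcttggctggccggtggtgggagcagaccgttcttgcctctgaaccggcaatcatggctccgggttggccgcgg

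The IL-6 family acts through the shared receptor subunit Il6st (gp130), JAK kinases and STAT3, which induces its own inhibitor Socs3. Of 19 members tested, 5 rose and none fell, against 0.958% and 0.368% of all genes tested, with a median of 0.77. Il6st rose by 0.79 ± 0.14 (adjusted p = 0.0459). Stat3 read 11.93, 11.65 and 11.44 in albumin animals, against 8.79 and 9.26 in sham animals, and rose by 2.65 ± 0.44 (adjusted p = 0.044). Socs3 read 5.38, 7.65 and 6.03 with albumin and 2.33 and 2.35 in sham (4.01 ± 0.71, adjusted p = 0.047). Both sham signals of Socs3 lay under the filter level of 4, so the size of its difference depends on how low signals are treated: with them set to 4 it was 2.35. The transcription factor gene Cebpb rose by 1.90 ± 0.30 (adjusted p = 0.044) and the kinase gene Pim3 by 1.15 ± 0.20 (adjusted p = 0.047). Il6 itself was low, with 2.25, 4.41 and 5.55 in albumin animals and 2.28 and 2.30 in sham animals (1.78 ± 0.76, adjusted p = 0.227). The receptor-side and feedback genes thus separated the groups while Il6 overlapped with sham on 1 albumin array.

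Genes of reactive astrocytes were above sham for all 20 members tested, where 52.3% of all genes tested were above sham. The list median was 1.96, and 4 members rose while 16 did not pass. Vim, an intermediate filament of reactive astrocytes and other cells, read 12.99, 13.16 and 12.77 with albumin and 11.60 and 11.42 in sham (1.47 ± 0.22, adjusted p = 0.0366). S1pr3, a receptor for sphingosine-1-phosphate, read 9.61, 10.71 and 9.87 with albumin and 6.38 and 7.32 in sham (3.21 ± 0.55, adjusted p = 0.0451). S100a10, an annexin partner, rose by 1.59 ± 0.21 (adjusted p = 0.0316), and Stat3 is the fourth of these genes. Gfap, the filament most used to mark astrocytes, read 14.60, 14.61 and 14.52 in the albumin animals, against 12.70 and 13.91 in the sham animals (1.27 ± 0.34, adjusted p = 0.0971). Its albumin arrays were nearly equal and the spread lay in sham. Several members were split the same way in sham: 8 of the 20 were at least 1 log2 unit higher in sham replicate 2 and none in sham replicate 1.

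Genes of the astrocyte's routine tasks lay mostly below sham. Of 20 genes for potassium, water and glutamate handling, 19 were below sham, with a median of −0.61, and 6 were at least 2-fold lower with no overlap, against 2.5% of all genes tested. Only 1 passed, and 12 had an unadjusted p under 0.05, against 21.4% of all genes tested. Slc25a18, a mitochondrial glutamate carrier, read 8.70, 7.97 and 8.61 with albumin and 9.83 and 9.90 in sham, and fell by 1.44 ± 0.24 (adjusted p = 0.044). Slc4a4, a sodium bicarbonate cotransporter, read 10.53, 9.74 and 10.64 with albumin and 11.57 and 11.70 in sham (−1.33 ± 0.26, adjusted p = 0.0551). Both carriers were lower on every albumin array than on either sham array, and the second missed the threshold. The gap junction gene Gja1 (connexin 43) read 13.83, 13.24 and 13.68 with albumin and 14.31 and 14.24 in sham (−0.69 ± 0.18, adjusted p = 0.0932). The water channel gene Aqp4 had a difference of −0.30 ± 0.15 (adjusted p = 0.284) and the glutamate transporter gene Slc1a3 (GLAST) one of −0.37 ± 0.13 (adjusted p = 0.163). Kcnj10, the potassium channel Kir4.1, read 5.54, 4.34 and 4.21 with albumin and 5.03 and 5.43 in sham (−0.53 ± 0.56, adjusted p = 0.586). Slc1a2 (GLT-1) was the member not below sham, at 9.07, 8.29 and 8.35 with albumin and 8.27 and 8.41 in sham (0.23 ± 0.23, adjusted p = 0.566). Gja1, Aqp4, Slc1a3, Kcnj10 and Slc1a2 each differed by less than 1 log2 unit between the group means. Albumin replicate 2 had the lowest mean for the list, 1.28 below the sham mean, against 0.44 and 0.52 below for replicates 1 and 3. Without albumin replicate 2 the list median was −0.43, against −0.61 with all arrays, so it was smaller but kept its sign.

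Microglial genes of the resting state lay below sham and most genes of phagocyte activation above it. All 8 homeostatic microglial genes tested were below sham, with a median of −1.28. Gpr34, a lysophospholipid receptor of resting microglia, read 5.46, 5.04 and 5.08 with albumin and 6.81 and 7.05 in sham, and fell by 1.73 ± 0.25 (adjusted p = 0.0366). P2ry12, the ADP receptor of resting microglia, read 7.62, 6.26 and 6.91 with albumin and 9.20 and 9.42 in sham (−2.38 ± 0.47, adjusted p = 0.0558). Olfml3, a secreted protein of microglia, read 2.82, 2.67 and 2.71 with albumin and 5.54 and 5.17 in sham (−2.62 ± 0.61, adjusted p = 0.0716). The groups were separate for all 3 genes. The general myeloid gene Csf1r differed by −0.22 ± 0.18 (adjusted p = 0.495). Of 22 genes of phagocyte activation, 2 rose and 20 did not pass, with a median of 1.38 (0.74 without sham replicate 1). Lgals3, a galectin of activated phagocytes, read 11.13, 12.50 and 11.39 with albumin, against 6.71 and 8.55 in sham (4.04 ± 0.65, adjusted p = 0.044). Gpnmb, a membrane glycoprotein of lipid-laden phagocytes, read 11.26, 12.01 and 12.21 with albumin and 7.48 and 9.39 in sham (3.39 ± 0.62, adjusted p = 0.0486). The sham arrays were 1.83 apart for Lgals3 and 1.91 for Gpnmb, and both still lay well below every albumin array. Spp1, which encodes osteopontin, read 11.69, 13.09 and 10.58 with albumin and 3.10 and 7.63 in sham (6.42 ± 1.47, adjusted p = 0.0691). In 12 of the 22 genes sham replicate 2 was at least 1 log2 unit above sham replicate 1.

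Only 4 of 19 marker genes of neutrophils and lymphocytes passed the filter. Limma called none of them, and 2 had an unadjusted p under 0.05, against 21.4% of all genes tested. S100a8 and Mmp9 were under 4 on both sham arrays, so they did not pass the filter through sham. The median of the 4 was 3.61, and over the 14 of these markers that were measured, with no filter, it was −0.02. S100a9, a calcium-binding protein abundant in neutrophils, read 9.37, 7.82 and 11.43 with albumin and 3.35 and 5.78 in sham (4.98 ± 1.32, adjusted p = 0.0954). Mmp9, a gelatinase of neutrophils and other cells, read 4.16, 9.48 and 5.51 with albumin and 2.58 and 2.80 in sham (3.69 ± 1.64, adjusted p = 0.241). Both were separated between the groups, but the array with the highest signal differed, being albumin replicate 3 for S100a9 and replicate 2 for Mmp9. Of the red cell genes, Hbb, a β-globin, had 14.49, 13.60 and 14.43 with albumin and 13.31 and 13.49 in sham (0.77 ± 0.37, adjusted p = 0.265), and Alas2, the erythroid haem synthesis enzyme, 7.72, 5.75 and 7.17 against 4.16 and 5.63 (1.99 ± 0.72, adjusted p = 0.17). The part of blood cells in the results was not tested.

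Galectins, S100 proteins and annexins, which bind sugars, calcium and membranes, had 4 of 22 members that rose, against 0.958% of all genes tested. None fell, and the list median was 0.12. S100a4, an S100 protein of motile cells, shared the smallest adjusted p with Rgs16 and Med8. It read 10.50, 10.27 and 10.26 in the albumin animals, against 7.16 and 8.07 in the sham animals (2.73 ± 0.25, adjusted p = 0.0146). S100a11 rose by 2.40 ± 0.37 (adjusted p = 0.044), beside S100a10 and Lgals3 above. Among the annexins, Anxa1 and Anxa2 had differences of 1.10 ± 0.25 and 1.46 ± 0.35 (adjusted p = 0.0704 and 0.0758).

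**Figure D2:**
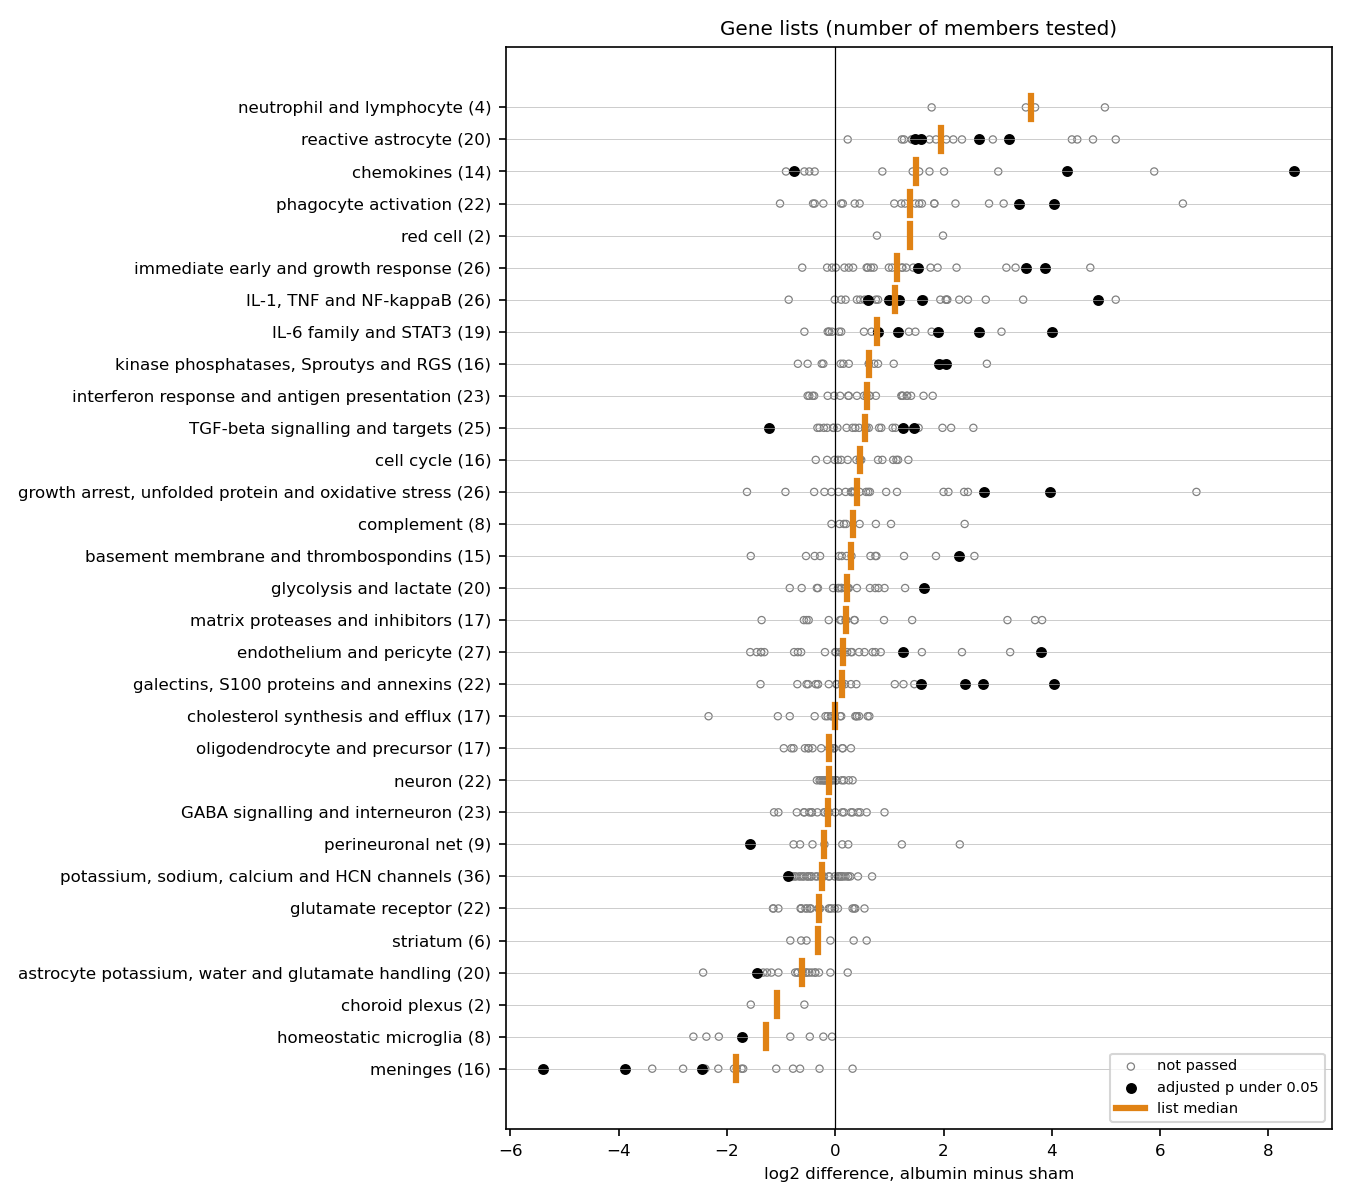
Log2 difference, albumin minus sham, for each tested member of the 31 gene lists, ordered by the list median (orange bar); filled points passed the threshold and open points did not. Lists of reactive astrocytes (median 1.96) and chemokines (1.49) lie toward the top and those of homeostatic microglia (−1.28) and meninges (−1.84) at the bottom.

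Immediate early genes encode transcription factors and mRNA regulators that cells switch on within minutes of a stimulus. Of 26 members 23 were above sham, against 52.3% of all genes tested, with a median of 1.14 (0.61 without albumin replicate 2). Of the 26, 3 rose, against 0.958% of all genes tested. Zfp36, which destabilises cytokine transcripts, read 9.01, 10.47 and 10.27 with albumin and 5.88 and 6.19 in sham (3.88 ± 0.59, adjusted p = 0.0419). Myc, the growth-promoting transcription factor, read 8.65, 9.81 and 8.05 with albumin and 4.97 and 5.64 in sham (3.53 ± 0.62, adjusted p = 0.047). Klf6, a zinc finger factor induced by injury, rose by 1.52 ± 0.19 (adjusted p = 0.0266). The 3 albumin arrays did not share a level for the list: its mean lay 0.52, 2.06 and 1.55 above the sham mean for albumin replicates 1, 2 and 3. On the single pair of set 1, 13 of the 26 genes were above sham and 13 below, with a median of −0.02.

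Among the phosphatases, Sproutys and RGS proteins that limit kinase and G protein signalling, 2 of 16 rose, against 0.958% of all genes tested. The list median was 0.62 (0.29 without albumin replicate 2). Rgs16, which shortens G protein signals, read 6.94, 6.52 and 6.65 with albumin and 4.80 and 4.78 in sham (1.91 ± 0.16, adjusted p = 0.0146). Spry1, an inhibitor of growth factor receptor signalling, read 6.21, 7.28 and 6.65 with albumin and 4.42 and 4.93 in sham (2.04 ± 0.30, adjusted p = 0.0376). Both groups were tight for Rgs16, while Spry1 varied more among the albumin animals. Of 26 genes for growth arrest, the unfolded protein response and oxidative stress, 2 rose, both of them growth arrest genes, and the median was 0.41 (0.21 without albumin replicate 2). Gadd45g read 9.85, 12.23 and 12.24 with albumin and 7.19 and 7.76 in sham (3.97 ± 0.73, adjusted p = 0.0487). Gadd45a rose by 2.74 ± 0.47 (adjusted p = 0.0455). Hmox1, the haem-degrading enzyme, read 10.59, 11.18 and 11.01 with albumin and 3.83 and 4.67 in sham. Its difference of 6.67 ± 1.60 was second only to Ccl2 among the genes named here, but it did not pass (adjusted p = 0.0764). The endoplasmic reticulum chaperone gene Hspa5 differed by 0.31 ± 0.18 (adjusted p = 0.35).

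TGF-β receptors are the proposed entry point of albumin into signalling in astrocytes, so ligands, receptors, Smads and target genes were listed. Of 25 tested, 2 rose and 1 fell, against 0.958% and 0.368% of all genes tested. The list median was 0.55 (0.25 without albumin replicate 2 and 0.34 without sham replicate 1). Eng (endoglin), a co-receptor of endothelial cells, read 7.32, 7.37 and 7.52 with albumin and 6.01 and 6.27 in sham (1.26 ± 0.23, adjusted p = 0.0486). Tgif1, a corepressor of Smad proteins, read 7.78, 8.67 and 8.41 with albumin and 6.83 and 6.84 in sham (1.45 ± 0.27, adjusted p = 0.0495). Id4, a helix-loop-helix inhibitor downstream of BMP receptors, read 9.48, 9.25 and 9.50 with albumin and 10.76 and 10.51 in sham, and fell by 1.23 ± 0.23 (adjusted p = 0.049). The groups were separate for these 3 genes. The ligand gene Tgfb1 read 6.53, 7.97 and 6.31 with albumin and 6.24 and 6.02 in sham (0.81 ± 0.56, adjusted p = 0.42). The receptor gene Tgfbr1 differed by −0.29 ± 0.37 (adjusted p = 0.661) and the feedback inhibitor gene Smad7 by 0.32 ± 0.19 (adjusted p = 0.358). No probe set named Tgfbr2 by itself. The largest departure of a single array on this list was Inhba, an activin subunit gene, at 7.80, 13.90 and 8.66 with albumin and 7.93 and 8.03 in sham (2.14 ± 1.52, adjusted p = 0.428). Albumin replicate 2 alone was far above sham there, and its list mean lay 1.19 above the sham mean, against 0.21 and 0.48 for replicates 1 and 3.

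In blood vessels, 2 of 27 genes of endothelium and pericytes rose, Eng and Angpt2, and the median was 0.14. Angpt2, a vessel-destabilising ligand of the receptor Tie2, read 8.35, 7.62 and 8.76 in the albumin animals, against 4.51 and 4.37 in the sham animals (3.80 ± 0.67, adjusted p = 0.047). The tight junction gene Cldn5 had a difference of −0.63 ± 0.18 (adjusted p = 0.113). In the basement membrane list, Col4a1, a type IV collagen chain, was the only one of 15 genes that rose, with 10.07, 9.81 and 9.71 with albumin and 7.21 and 7.93 in sham (2.29 ± 0.39, adjusted p = 0.0451). The list median was 0.30 (0.55 without sham replicate 1). None of 17 matrix proteases and inhibitors was called by limma, and 6 had an unadjusted p under 0.05, against 21.4% of all genes tested (median 0.20). The smallest p were those of Adamts9 (3.18 ± 0.63, adjusted p = 0.0551) and Adamts1 (3.82 ± 0.76, adjusted p = 0.0558), both aggrecan-cleaving enzymes. Hapln1, which links hyaluronan to proteoglycans in perineuronal nets, read 6.58, 6.02 and 6.72 with albumin and 8.19 and 7.83 in sham, and fell by 1.57 ± 0.25 (adjusted p = 0.044). It was the only called member of 9 perineuronal net genes, whose median was −0.20.

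Genes of the meninges, the membranes over the cortex, were among the largest falls. Of 16 such genes tested, 15 were below sham, where 52.3% of all genes tested were above sham, and the median was −1.84. At least 2-fold lower with no overlap were 11, and 3 fell, against 2.5% and 0.368% of all genes tested. Ogn, a small leucine-rich proteoglycan, read 4.28, 2.81 and 4.21 with albumin, against 8.50 and 9.82 in sham, and fell by 5.39 ± 0.96 (adjusted p = 0.047). Slc13a4, a sulfate transporter of meninges and choroid plexus, read 2.33, 1.94 and 2.49 with albumin and 6.24 and 6.06 in sham, and fell by 3.89 ± 0.69 (adjusted p = 0.047). With signals under 4 set to 4, the Slc13a4 difference was −2.15. Ptgds, the prostaglandin D synthase abundant in arachnoid cells, read 11.76, 11.58 and 12.39 with albumin and 14.68 and 14.05 in sham (−2.46 ± 0.39, adjusted p = 0.044). All albumin arrays were far below both sham arrays in these 3 genes. The collagen gene Col3a1 read 7.18, 5.81 and 7.53 with albumin and 9.80 and 9.51 in sham (−2.81 ± 0.57, adjusted p = 0.0569). Ttr and Enpp2, the 2 tested markers of choroid plexus, differed by −1.56 ± 1.08 (adjusted p = 0.42) and −0.57 ± 0.31 (adjusted p = 0.32), and Ttr was split in sham at 4.71 and 8.42. The mean signal of the meningeal list was 6.64, 6.03 and 6.85 on the albumin arrays, against 8.66 and 8.37 on the sham arrays. On the single pair of set 1, 8 of these 16 genes were above sham and 8 below, with a median of −0.03. How much meningeal tissue each sample held was not tested.

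Lbp, Coch and Ddc, 3 other large falls, stood on no list. Lbp, the lipopolysaccharide binding protein, read 2.14, 2.16 and 2.64 with albumin and 8.19 and 6.87 in sham (−5.21 ± 0.96, adjusted p = 0.0487). Coch, the secreted protein cochlin, read 4.37, 4.27 and 5.84 with albumin and 9.79 and 8.14 in sham (−4.14 ± 0.68, adjusted p = 0.044). Ddc, which makes dopamine and serotonin from their amino acid precursors, read 2.30, 2.49 and 3.26 with albumin and 6.69 and 6.58 in sham (−3.95 ± 0.43, adjusted p = 0.0251). The groups were far apart in all 3. Lbp and Ddc were under the filter level on every albumin array, and with signals under 4 set to 4 their differences were −3.53 and −2.64. Fam180a fell by 3.00 ± 0.54, Cdkl4, a kinase related to cyclin-dependent kinases, by 2.38 ± 0.40 and Sfrp4, a secreted Wnt antagonist, by 2.26 ± 0.41 (adjusted p = 0.047, 0.044 and 0.0476). The matrix protein gene Aspn fell by 2.03 ± 0.34 (adjusted p = 0.044; −1.30 with signals under 4 set to 4), Nkain4, a partner of the sodium pump, by 1.75 ± 0.27 (adjusted p = 0.044) and LOC102549303 by 1.60 ± 0.23 (adjusted p = 0.0366). The largest falls that were separated between groups and did not pass were in Nat8f3 (−5.32 ± 1.11, adjusted p = 0.0609) and Gjb2, connexin 26 (−4.47 ± 0.87, adjusted p = 0.0551). Next came Nat8f5 (−4.40 ± 0.90, adjusted p = 0.0586), the scavenger receptor gene Colec12 (−3.69 ± 0.71, adjusted p = 0.0543), Slc22a8, which is on the meningeal list (−3.38 ± 0.72, adjusted p = 0.062) and Dipk1c (−3.32 ± 0.64, adjusted p = 0.0543).

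Large rises outside the lists concerned diverse functions. Pik3r1, the regulatory subunit of PI3 kinase, read 8.11, 8.89 and 5.87 with albumin and 3.18 and 3.06 in sham (4.51 ± 0.74, adjusted p = 0.044). Scn7a, a sodium channel of glia and sensory neurons that senses salt, read 7.15, 6.10 and 7.80 with albumin and 3.21 and 3.22 in sham (3.80 ± 0.62, adjusted p = 0.044). In both genes the sham signal was under the filter level, and with signals under 4 set to 4 the differences were 3.62 and 3.02. Tagln, an actin-binding protein of smooth muscle and fibroblasts, read 11.16, 11.97 and 11.36 with albumin and 7.77 and 8.24 in sham (3.50 ± 0.59, adjusted p = 0.0446). Upp1, which breaks down uridine, rose by 3.39 ± 0.56 (adjusted p = 0.044) and the tubulin gene Tubb6 by 3.25 ± 0.56 (adjusted p = 0.0461). H19, an imprinted non-coding RNA, read 9.48, 9.97 and 9.36 with albumin and 3.59 and 4.94 in sham (5.34 ± 1.03, adjusted p = 0.0551). Calca, the gene of calcitonin and CGRP, read 9.11, 11.46 and 10.55 with albumin and 4.42 and 6.15 in sham (5.09 ± 1.24, adjusted p = 0.0768). H19 and Calca were separated between the groups but missed the threshold.

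The 10 smallest p-values included those of Rgs16, S100a4 and Ddc. The others were Med8, a Mediator subunit (1.40 ± 0.12, adjusted p = 0.0146), Mtap, an enzyme of methionine salvage (1.45 ± 0.15, adjusted p = 0.0216), and Otulinl (2.15 ± 0.23, adjusted p = 0.0251). Nos3, the endothelial nitric oxide synthase, rose by 1.76 ± 0.20 (adjusted p = 0.0262), as did the zinc exporter gene Slc30a1 by 1.32 ± 0.15 (adjusted p = 0.0262) and Anapc16, a subunit of the anaphase-promoting complex, by 0.98 ± 0.12 (adjusted p = 0.0266). Wfdc1, a secreted protein with a protease inhibitor fold, read 6.70, 6.80 and 6.67 with albumin and 8.01 and 7.79 in sham, and fell by 1.18 ± 0.13 (adjusted p = 0.0251).

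Neurons and their excitability were covered by 4 lists, and with 1.33% of all genes called, lists of this size would hold few calls. The counts below at an unadjusted p under 0.05 are to be read against 21.4% of all genes tested. Limma called none of 22 neuronal genes, also at an unadjusted p under 0.05 (0 genes; median −0.11), and their list mean was 12.54, 12.06 and 12.24 on the albumin arrays, against 12.40 and 12.32 on the sham arrays. Of 22 glutamate receptor and synapse genes limma called none, and 4 had an unadjusted p under 0.05 (median −0.30; −0.06 without albumin replicate 2). The smallest p was that of the scaffold gene Homer1, at 11.40, 11.29 and 11.50 with albumin and 11.84 and 11.90 in sham (−0.47 ± 0.10, adjusted p = 0.0672). Of 23 genes of GABA signalling and interneurons it called none, and 4 had an unadjusted p under 0.05 (median −0.14). There Calb1, the calcium buffer calbindin, read 10.99, 11.10 and 11.18 with albumin and 12.01 and 12.27 in sham (−1.05 ± 0.21, adjusted p = 0.0564). Of 36 genes of potassium, sodium, calcium and HCN channels, only Kcnip1, an accessory subunit of A-type potassium channels, was called. It read 9.12, 8.81 and 9.07 with albumin and 9.64 and 10.12 in sham and fell by 0.88 ± 0.16 (adjusted p = 0.0488), beside a list median of −0.25. For oligodendrocytes and their precursors none of 17 genes was called by limma and 3 had an unadjusted p under 0.05 (median −0.11). Ermn, a myelin cytoskeletal gene, had −0.95 ± 0.28 (adjusted p = 0.118) and Pdgfra, the growth factor receptor of the precursors, −0.77 ± 0.24 (adjusted p = 0.126). Of the 6 striatal markers none was called by limma and 1 had an unadjusted p under 0.05, and 6 genes are too few to read against 1.33%. Pde10a, a phosphodiesterase of striatal neurons, read 10.48, 9.40 and 10.53 with albumin and 10.81 and 11.12 in sham, with separate groups (−0.83 ± 0.33, adjusted p = 0.199). Ppp1r1b (DARPP-32) read 9.68, 9.07 and 9.62 with albumin and 10.10 and 10.07 in sham (−0.63 ± 0.36, adjusted p = 0.34).

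Energy and growth lists had 1 call among them. Slc16a3, the lactate exporter MCT4, read 4.44, 5.24 and 5.24 with albumin and 3.31 and 3.37 in sham, and rose by 1.63 ± 0.23 (adjusted p = 0.0342; 0.97 with signals under 4 set to 4), whereas the 20 glycolysis and lactate genes had a median of 0.21. Pfkfb3, a regulator of glycolytic flux, read 9.88, 10.58 and 10.22 with albumin and 8.96 and 8.92 in sham (1.29 ± 0.39, adjusted p = 0.122). Of 17 genes of cholesterol synthesis and efflux limma called none, and 7 had an unadjusted p under 0.05 (median −0.01). That is a larger share than the 21.4% of all genes tested. Lcat, which esterifies cholesterol on lipoproteins, read 6.37, 5.34 and 6.12 with albumin and 8.60 and 7.97 in sham (−2.34 ± 0.47, adjusted p = 0.0564). All albumin arrays were below sham for Lcat and above it for Pfkfb3, though neither passed. Of 16 genes of the cell cycle limma called none, and 7 had an unadjusted p under 0.05 (median 0.45), also a larger share than 21.4%. Mcm4, a subunit of the replication helicase, had 1.07 ± 0.22 (adjusted p = 0.0588). For the cell cycle, sham replicate 2 was above sham replicate 1 in 15 of the 16 genes. Of 8 complement genes limma called none, and 2 had an unadjusted p under 0.05, against 21.4% of all genes tested. The median was 0.32 (−0.08 without sham replicate 1 and 1.0 without sham replicate 2). C5ar1, the receptor for the anaphylatoxin C5a, read 4.67, 5.36 and 5.99 with albumin and 2.42 and 3.47 in sham (2.39 ± 0.48, adjusted p = 0.0564), whereas C3, the central complement component, read 7.44, 5.56 and 9.28 with albumin and 6.29 and 8.25 in sham (0.16 ± 0.97, adjusted p = 0.937), so the groups overlapped for C3 and were separate for C5ar1. Of 23 genes of interferon response and antigen presentation limma called none, and 5 had an unadjusted p under 0.05, near the 21.4% of all genes tested (median 0.58; 0.11 without albumin replicate 3). Irf9, a subunit of the interferon-activated factor ISGF3, read 9.32, 8.81 and 9.72 with albumin and 7.93 and 8.18 in sham (1.23 ± 0.27, adjusted p = 0.0672). Their mean lay 1.54 above the sham mean on albumin replicate 3, against 0.02 and 0.18 on replicates 1 and 2.

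**Figure D3:**
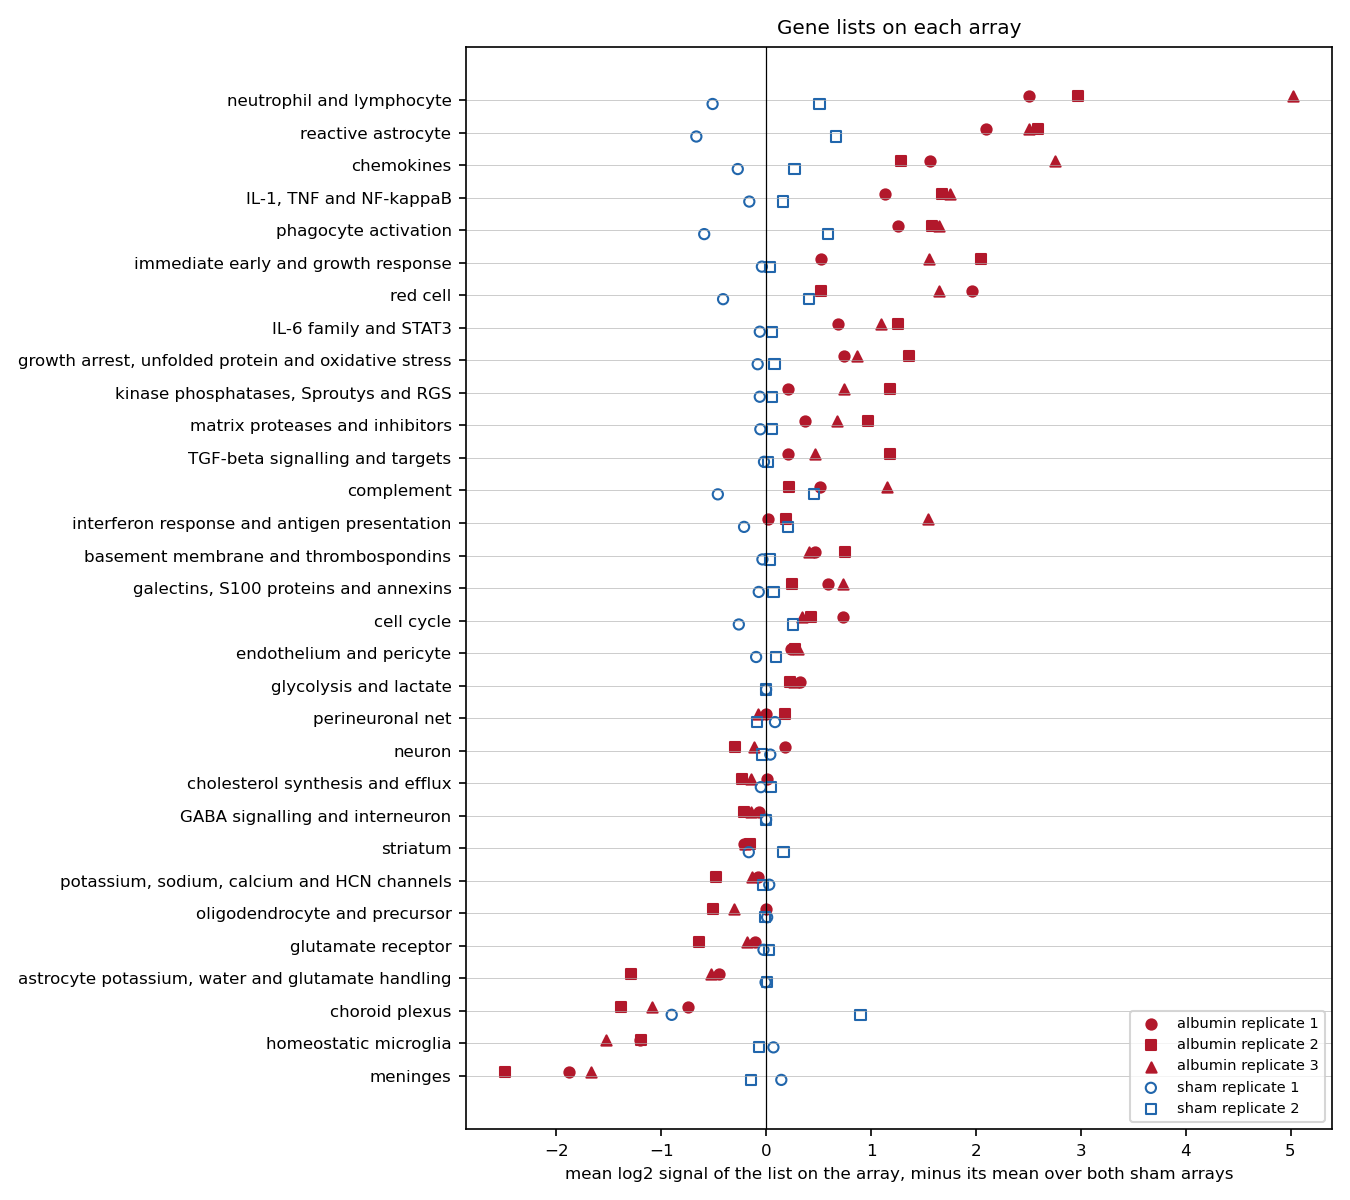
Mean log2 signal of each gene list on each array, minus the list's mean over both sham arrays; albumin arrays are filled red and sham arrays open blue. Interferon genes are high on albumin replicate 3 alone (1.54), immediate early genes are lowest on albumin replicate 1 (0.52), and the sham arrays are farthest apart for choroid plexus, reactive astrocyte and phagocyte genes.

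The albumin arrays were farther apart than the sham arrays. They were at least 1 log2 unit apart for 1637 genes, and the median SD over genes was 0.238 with albumin and 0.091 in sham. A spread over 3 arrays and one over 2 are not directly comparable. Much of the albumin spread lay in replicate 2, at least 1 above both others for 355 genes and below both for 491. The same counts were 35 and 76 for replicate 1, and 93 and 27 for replicate 3. Among genes with a mean difference of at least 1 and sham arrays less than 1 apart, the widest range was that of Brcc3-ps7, a pseudogene, at 9.72, 8.63 and 2.23 with albumin and 8.73 and 8.67 in sham. Sprr1a, an injury-induced gene of regenerating neurons, read 4.99, 12.47 and 5.28 with albumin and 2.58 and 2.64 in sham. Phf24 read 9.77, 3.36 and 10.75 with albumin and 10.84 and 10.63 in sham. One array decides the difference of Brcc3-ps7 (albumin replicate 3) and of Phf24 (albumin replicate 2). For Sprr1a, albumin replicate 2 sets much of the size, while albumin replicates 1 and 3 also lay above both sham arrays. Ccn1, a matricellular protein, read 2.75, 9.23 and 4.12 with albumin and 2.79 on both sham arrays. Cdkn3, a cell cycle phosphatase, read 2.19, 8.04 and 2.19 with albumin and 2.18 and 2.19 in sham. Inhba, Mmp9 and Il1b complete this group. None of these 8 genes was called.

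**Figure D4:**
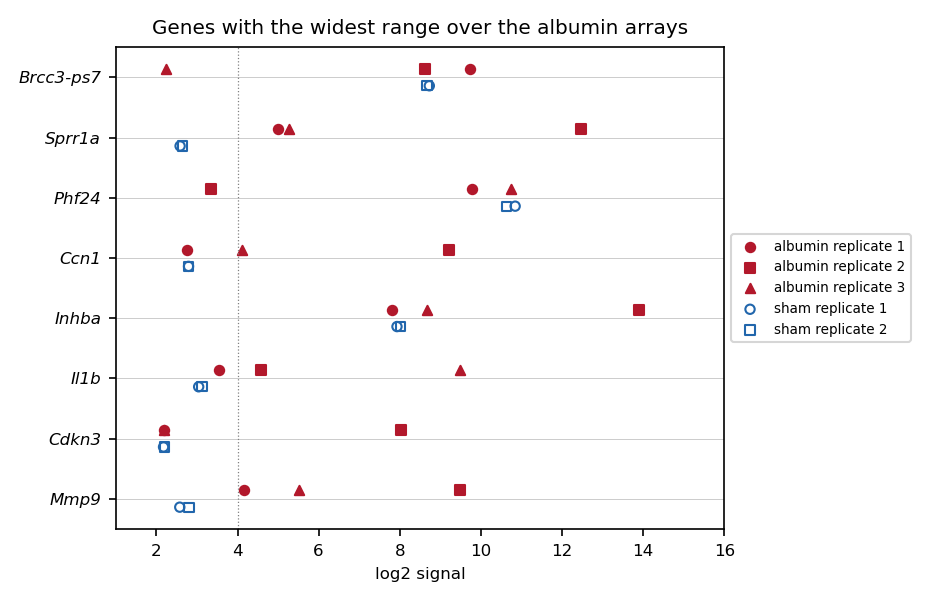
Log2 signal on each albumin array (filled red) and sham array (open blue) for the 8 genes with the widest range over the albumin arrays; the dotted line marks the filter level of 4. Albumin replicate 2 is the outlying array for Sprr1a, Phf24, Ccn1, Inhba, Cdkn3 and Mmp9, and albumin replicate 3 for Brcc3-ps7 and Il1b.

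Set 1 of the study holds 1 albumin and 1 sham array at 24 h, from other animals, which give differences without replicates or a test. Of the 137 genes called in set 2, 128 (93.4%) had the same direction in set 1, against 69.8% of all genes tested. These were 98 of the 99 genes that rose and 30 of the 38 that fell. A direction was counted however small the set 1 difference, such as 0.003 for Slc30a1, 0.079 for Nos3 and −0.055 for Coch. At least 2-fold in the direction of set 2 were 63 of the 137 genes (46.0%), of which 52 rose and 11 fell, against 6.72% of all genes tested. Genes not called but at least 2-fold apart without overlap kept their direction in 97.8% (higher) and 92.8% (lower). At least 2-fold in set 1 were 67.2% and 42.6% of them, against 71.9% and 39.1% of the called rises and falls of at least 2-fold. Over all called rises and falls, whatever their size, the shares were 52.5% and 28.9%. The same direction in set 1 was thus not particular to the called genes. Ccl2 was 7.29 above sham in set 1, at 10.13 on the albumin array against 2.83 on the sham array. For Hmox1 the set 1 difference was 6.71 and for Spp1 8.27, although neither was called in set 2. Within set 2, 24 of the called genes had a further probe set past the filter, and all 36 such probe sets had the direction of the called one. The size was not always kept. It was 0.11 for Ehd1 and 0.19 for G3bp1, against 0.95 and 0.88 for the called probe sets. For Msn it was larger, at 3.01 against 2.14. These probe sets were read on the same arrays, so unlike set 1 they are not from other animals.

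**Figure D5:**
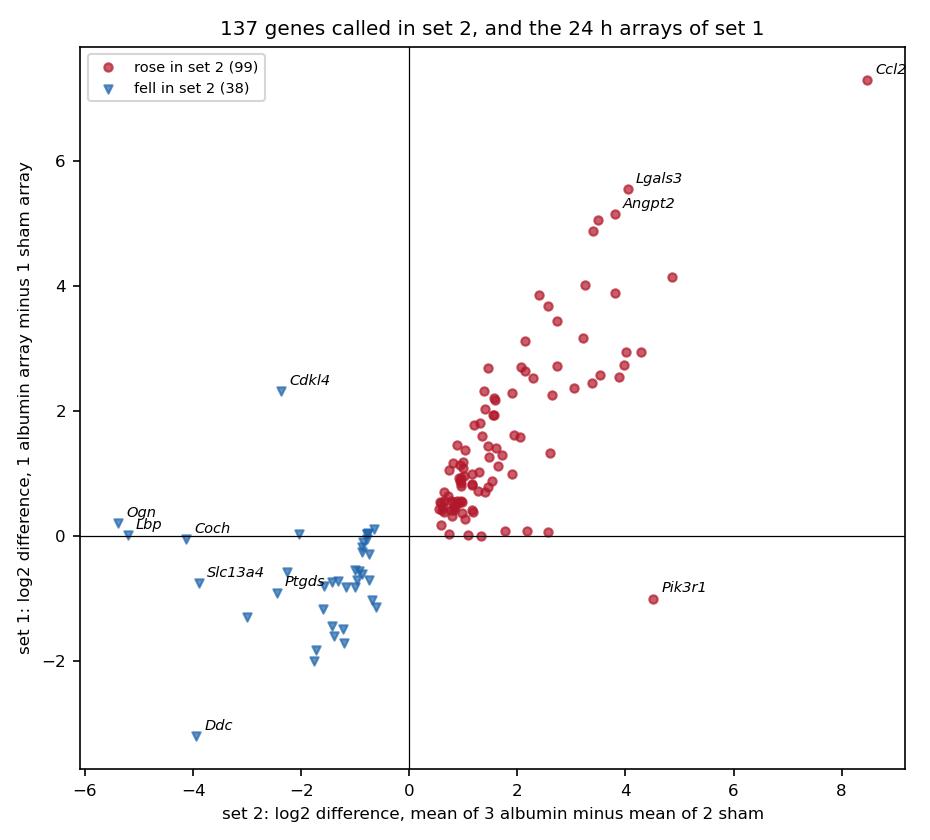
Log2 difference, albumin minus sham, of the 137 called genes in set 2 (horizontal, mean of 3 against mean of 2 arrays) and in set 1 (vertical, 1 array each); red circles rose and blue triangles fell in set 2. Pik3r1 (4.51 and −1.0) and Cdkl4 (−2.38 and 2.32) lie in opposite quadrants.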

How the data were processed

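RNA was isolated with Trizol, turned into biotinylated cRNA and read on Affymetrix arrays, per the labels. The deposited values are log2 signals per probe set, made by the authors with GCRMA per the submitters' processing notes (version not given in the sources used here). The method removes background, applies quantile normalisation and combines probes and no further normalisation was applied.

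Of 31099 probe sets, 20837 named 1 gene, 425 named several, 9780 named none and 57 were controls. For each of 14224 genes, the probe set whose mean over all 19 arrays was highest stood for the gene. limma 3.58.1 (R 4.3.3; lmFit and eBayes) was fitted to the 9 arrays of set 2 in 3 groups, with the contrast albumin minus sham, two-sided, and Benjamini-Hochberg adjustment over the 10333 genes tested. The procedure was tested on simulated data. Summaries and figures used Python 3.11.15, pandas 2.3.3 and matplotlib 3.10.9.

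The members and the 31 gene lists were chosen with earlier results of these data known, so lists are described by counts and medians without a test of their own. Some genes stand on more than 1 list. The genes named were the 15 largest rises and 15 largest falls called; the list members called, or up to 2 with the smallest p in lists with fewer than 2 calls; 14 genes of TGF-β signalling, astrocytes and cytokines whatever their values; the 8 widest ranges over albumin arrays; the 6 largest separated differences not called in each direction; and the 10 smallest p. Anxa1, Anxa2, Cldn5, Col3a1, Csf1r, Hspa5, Snap25 and the genes of the closing section were added after their values were seen.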

Additional observations from a re-analysis of the deposited data

Results flagged for a closer look

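In 9 of the 137 genes called in set 2, the single albumin array of set 1 lay on the other side of its sham array; the difference between the sets was not tested, since set 1 has 1 array per group. Pik3r1, the PI3 kinase regulatory subunit, was 4.51 above sham in set 2 and had −1.0 in set 1, with 4.88 on the albumin array against 5.89 on the sham array. Cdkl4 was 2.38 below sham in set 2 and had 2.32 in set 1, with 8.83 against 6.52. These 2 genes were above 4, the filter level, on both arrays of set 1. For the other 7 genes, which all fell in set 2, the set 1 difference was small: 0.03 for Itgb4, 0.03 for Mxra8, 0.04 for Ccl19, 0.11 for Steap3, 0.02 for Aspn, 0.20 for Ogn and 0.02 for Lbp. Of these, Itgb4, Ccl19, Aspn, Ogn and Lbp had set 1 signals under 4 on both arrays. Lbp, for example, had 2.14 on the albumin array and 2.12 on the sham array of set 1, against sham signals of 8.19 and 6.87 in set 2.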

How the results depend on the processing

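The number of calls was not stable. Their direction was kept, but leaving out an array cannot reverse it where the groups do not overlap, as in all 137 genes. Over the alternatives run, leaving out 1 array at a time gave 1 to 190 calls (1 to 120 higher, 0 to 70 lower), against 137 (99 and 38). Without a filter 27 genes were called (18 and 9), with arrays centred on their median 89 (52 and 37), with only the 5 albumin and sham arrays 4 (1 and 3), with the replicate block 53 (41 and 12) and with array weights 1000 (643 and 357), where limma gave albumin replicate 2 a weight of 0.122. A stricter filter, the filter on the 5 arrays, signals under 4 set to 4, other choices of probe set and a trended robust fit gave 126 to 145. Wherever they were tested, all genes called kept their direction. Deviations of same-numbered arrays correlated at 0.143 and 0.04 for albumin and sham, 0.223, 0.219 and 0.05 for albumin and blockers, and 0.001 and −0.136 for blockers and sham. For albumin and blocker arrays of different numbers the correlations ran from −0.26 to 0.185. Pairs with the 2 sham arrays mirror each other, as at 0.143 and −0.143, so they carry little information. Not every same-numbered pair was above 0.1, so the arrays were taken to share only a number. Whether they were paired is not settled by these values, and the block result is a check only. Of the list medians recomputed under the alternatives, 563 moved by less than the spread between replicates and 57 by more. Named genes that changed sign, none of them called, were Ttr (−3.42 to 0.29 with 1 array left out, the highest without sham replicate 2), Slc1a2 (−0.02 to 0.37, the lowest without albumin replicate 1, and −0.04 with probe sets averaged), C3 (−0.82 to 1.14, with −0.77 without albumin replicate 3 and the lowest without sham replicate 1, and −0.40 with the replicate block) and Brcc3-ps7 (−3.27 to 0.47, the highest without albumin replicate 3). The count of genes at least 2-fold apart without overlap stayed within 1.5 times 636. With 3 and 2 animals, the smallest difference called was 0.54 log2 units.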

Other observations

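Several of the 99 genes that rose encode proteins of the actin cytoskeleton. They were picked out after their values were seen, and actin genes that were not called were not counted. Zyx, a focal adhesion protein, read 8.98, 9.56 and 8.96 with albumin and 7.50 and 7.70 in sham (1.57 ± 0.21, adjusted p = 0.0316). Flna, the actin cross-linker filamin A, read 9.82, 9.85 and 9.84 with albumin and 8.37 and 8.53 in sham (1.39 ± 0.25, adjusted p = 0.0476). Msn, which ties actin to the membrane, rose by 2.14 ± 0.37, Arpc1b, a subunit of the actin-nucleating Arp2/3 complex, by 1.56 ± 0.29, and Vasp, an actin filament elongator, by 1.32 ± 0.24 (adjusted p = 0.0455, 0.0495 and 0.0476). The small GTPase genes Rhoc and Rhob rose by 1.20 ± 0.20 and 0.56 ± 0.10 (adjusted p = 0.0439 and 0.049). Pdpn (podoplanin), a membrane protein of reactive astrocytes and other cells, read 11.84, 12.69 and 12.01 with albumin and 9.22 and 9.98 in sham (2.58 ± 0.43, adjusted p = 0.0439). The albumin and sham arrays were separate in all of these genes.

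Sbno2, a transcriptional regulator in the IL-10 pathway of macrophages, read 9.27, 9.72 and 9.31 with albumin and 6.19 and 6.57 in sham (3.05 ± 0.43, adjusted p = 0.0347). Pnoc, which encodes the opioid-related peptide precursor prepronociceptin, read 9.12, 9.85 and 9.22 with albumin and 7.59 and 7.77 in sham (1.71 ± 0.32, adjusted p = 0.049). Tars1, a threonyl-tRNA synthetase, rose by 0.88 ± 0.16 (adjusted p = 0.047) and Mybbp1a, a nucleolar protein, by 0.63 ± 0.12 (adjusted p = 0.0487).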
